A study of Mus musculus with 15 samples.

Results

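The 9 genes described here encode the main proteins of the desmosome and were taken by name from the 20418 gene symbols of the deposited tables. They are the desmogleins Dsg2 and Dsg3, the desmocollins Dsc1, Dsc2 and Dsc3, the plakophilins Pkp1 and Pkp3, desmoplakin (Dsp) and junction plakoglobin (Jup). All 9 are listed in the table of each of the 15 eye libraries, with 1 transcript used for each symbol, and Dsc1 had 0 reads in 3 of them. The 5 desmosomal cadherins lie on chromosome 18, Pkp1 on chromosome 1, Pkp3 on chromosome 7, Jup on chromosome 11 and Dsp on chromosome 13.

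The study sequenced poly(A)+ RNA of mouse eyes with their eyelids, on the BALB/c background, to follow the role of the transcription factor Egr1 in the eyelid. There were 2 newborn wild-type and 2 newborn Egr1 knockout libraries, and 1 adult wild-type and 2 adult Egr1 knockout libraries, with no day of age given for either. At 3 days of age, both eyes of 4 mice were sequenced separately. Mice E24 and E29 were labelled Egr1-/- with 1 open and 1 closed eye each, E32 was labelled Egr1-/- with both eyes open, and E28 was labelled an Egr1+/- littermate with both eyes closed. The knockout allele was bred in from C57BL/6 stock, through 5 BALB/c generations the first time and 4 the second. The labels do not say which of these a library comes from. Each adult or newborn library is taken as 1 sample, because the labels do not say whether eyes or animals were pooled, so the p-values measure the spread between libraries.

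Reads assigned to transcripts ranged from 20334849 to 43907093 per library. Egr1 itself did not follow the labels. It reached 214 to 274 CPM (counts scaled to the library total) in the newborn libraries labelled knockout and 46.1 to 60.7 in the wild type, 184 to 256 in the adult knockout and 33.0 in the adult wild type. At day 3 it stood at 157 to 367 CPM in the eyes labelled Egr1-/- and 99.3 to 110.3 in the Egr1+/- eyes. The deposited value is 1 sum over the transcript, so it does not show which part of the gene was read, and the libraries are named here by their labels, as "labelled knockout" or "labelled Egr1-/-". Some libraries stood apart in tissue content. The summed level of 7 lens markers was 395 in labelled knockout newborn replicate 1 and 56836 to 64512 in the other newborn libraries. In adults the summed level of 4 corneal epithelium markers was 652 in labelled knockout replicate 1, against 4386 and 6853 in the other libraries. The summed level of 10 hair follicle markers was 1589 in the right eye of E32 and 105 to 290.04 in the other day 3 eyes. In the closed eyes Lhx2, 1 of these markers, alone stood at 197 to 276. Outside the right eye of E32 the sum thus does not rank the eyes by the other hair follicle markers.

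Desmosomes are adhesive junctions that hold epithelial cells together and anchor their keratin filaments. The extracellular parts of desmogleins and desmocollins bind those of the neighbouring cell. Inside the cell plakoglobin and the plakophilins bind the cadherin tails, and desmoplakin ties this plaque to the keratin network. Dsg2 and Dsc2 are widespread and are the desmosomal cadherins of simple epithelia. Dsg3 and Dsc3 mark the lower layers of stratified epithelia, and Dsc1 the upper, differentiating layers of the epidermis. The eyelids of mice close and fuse through their epithelium before birth and open again postnatally. Samples of eyes with their eyelids can hold skin, conjunctival and corneal epithelium, in amounts that may differ between libraries. In RNA of a whole eye, fewer epithelial cells and less RNA per cell cannot be told apart.

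Dsp and Jup, both plaque genes, were the members matched in the RefSeq table of gene starts. Their upstream windows are shown because the members varied together across eyes in several comparisons and because these windows can be compared for short motifs. Each covers the 250 bases before the annotated start, 5′ to 3′ on the gene's strand, in the mouse build GRCm38.p6, which differs from the mm8 build named in the submitters' processing notes. Jup lies at chr11:100397791-100398040 on the minus strand and Dsp at chr13:38151044-38151293 on the plus strand. Capitals mark GC boxes, the letters CCGCCC read on either strand.
Jup: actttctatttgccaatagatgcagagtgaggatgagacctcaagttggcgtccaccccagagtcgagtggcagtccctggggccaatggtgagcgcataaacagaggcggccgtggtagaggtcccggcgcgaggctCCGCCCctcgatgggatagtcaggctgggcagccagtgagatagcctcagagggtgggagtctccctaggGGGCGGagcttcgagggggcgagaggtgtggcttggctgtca
Dsp: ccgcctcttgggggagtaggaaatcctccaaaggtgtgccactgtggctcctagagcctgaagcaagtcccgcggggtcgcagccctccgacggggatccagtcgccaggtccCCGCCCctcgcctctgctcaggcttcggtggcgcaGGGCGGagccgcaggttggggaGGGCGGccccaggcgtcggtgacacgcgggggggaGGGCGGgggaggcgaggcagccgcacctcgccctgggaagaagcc
The Jup window held 2 GC boxes, 112 and 42 bases before the start, and the Dsp window held 4, at 137, 102, 80 and 45 bases. A GC box occurred in 32.74% of all 32851 windows of the same length in the table. Neither window held an E box (CANNTG, in 66.22% of windows), an AP-1 motif (TGANTCA, 6.75%), a Grainyhead-like motif (AACCNGTT, 1.79%) or an Egr1 motif (GCGNGGGCG, 4.7%). These motifs were searched on both strands. The matches describe letters only and say nothing of whether a factor binds there.

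Levels are RPKM values recomputed from the counts with library totals scaled by TMM over the 15 libraries, a scale on which genes can be compared with each other. Jup had the highest level of the 9 genes in 15 of 15 libraries, from 38.3 to 497. Pkp1, Pkp3, Dsp and Dsc2 filled ranks 2 to 5 in every library, with median levels of 45.5, 50.5, 53.3 and 20.4. The other cadherins ranked lower, with median levels of 8.13 for Dsg3, 5.52 for Dsg2, 2.53 for Dsc3 and 0.390 for Dsc1. The span between the highest and the lowest library also differed by gene. It was 9.17-fold for Dsg2 and 13.0-fold for Jup, but 41.7-fold for Dsg3 and 50.9-fold for Dsc3.

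**Figure D1:**
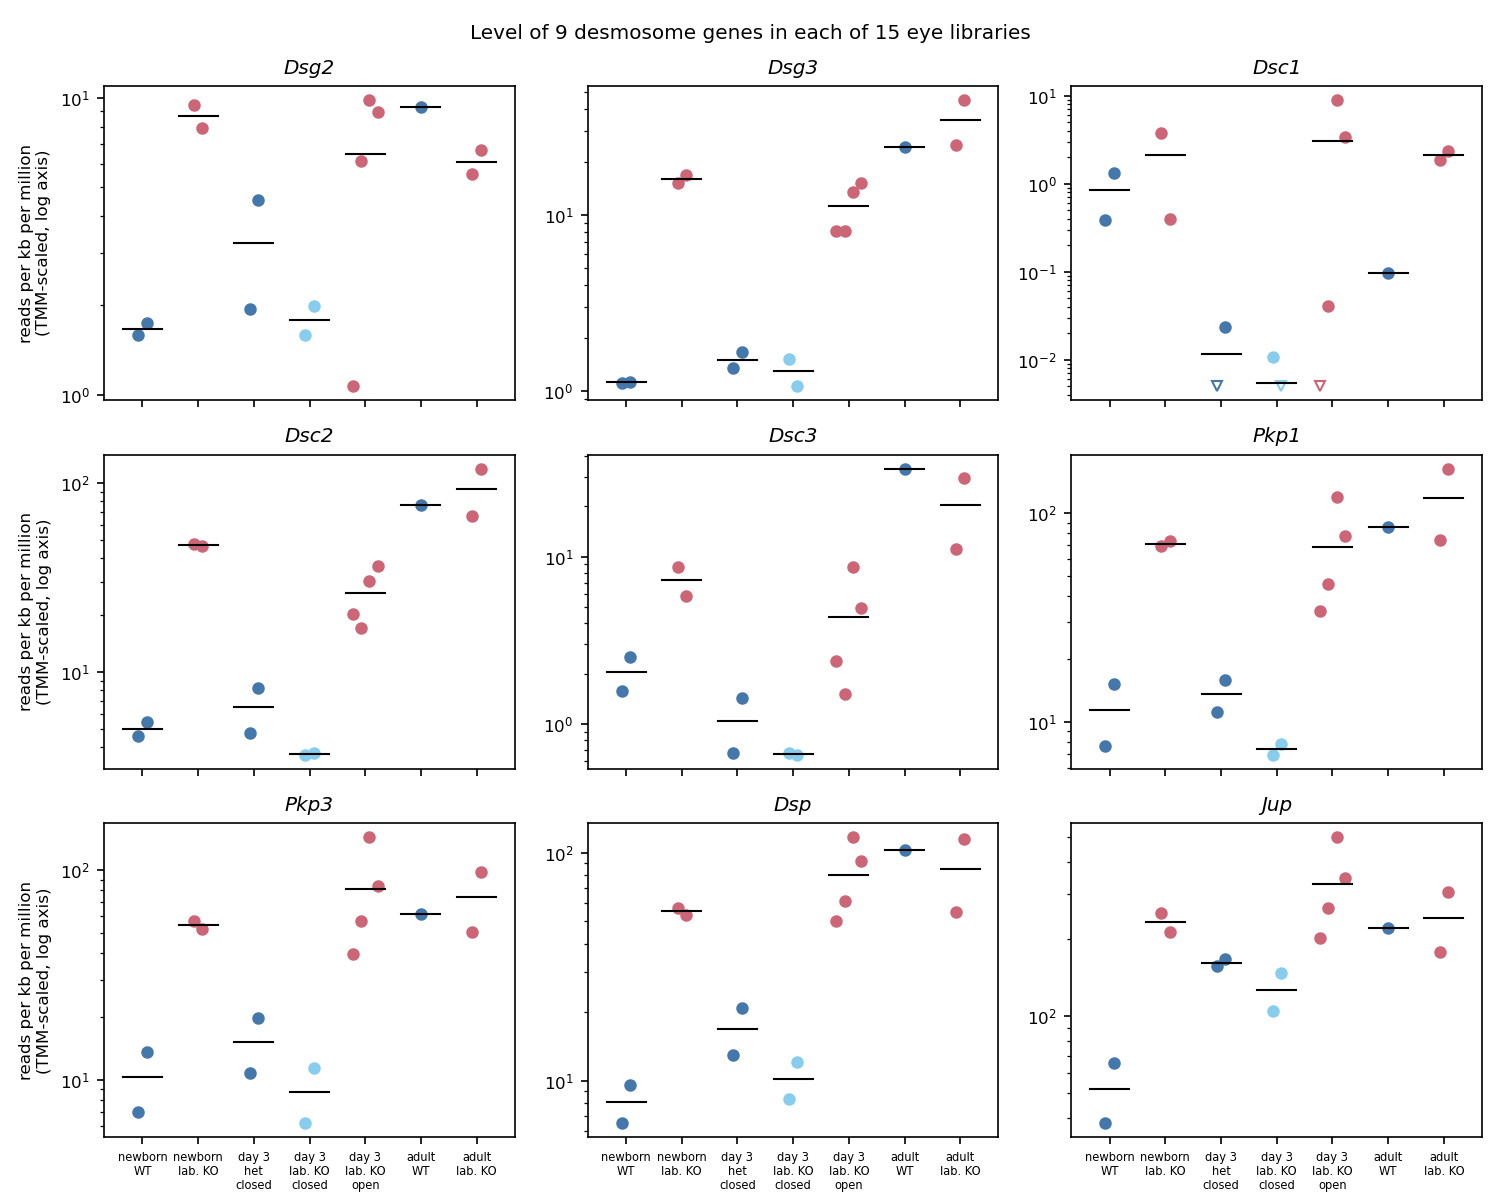
Level of each gene in each library, in RPKM with TMM-scaled totals on a log axis that differs between panels. Points are libraries, horizontal lines are group means, the adult wild type is 1 library, and open triangles at the floor mark libraries with 0 reads. For Dsg3, Dsc2, Pkp1, Pkp3 and Dsp, the newborn wild-type and day 3 closed eyes form a low group below all other libraries.

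The order of the groups was similar for most members. Newborn wild-type eyes and both kinds of closed day 3 eye held the 3 lowest group means for Dsg2, Dsg3, Dsc2, Dsc3, Pkp1, Pkp3, Dsp and Jup. Among these 3 groups, the ranges of neighbouring groups overlapped for Dsg2, Dsg3, Pkp1 and Pkp3, so their order is not resolved. The adult groups held both highest means for Dsg3, Dsc2, Dsc3, Pkp1 and Dsp. Open day 3 eyes held the highest means for Jup, Pkp3 and Dsc1, overlapping the adult labelled knockout in each. The labels used here name no sequencing run, so runs and ages cannot be told apart.

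Newborn eyes labelled knockout carried more RNA of 8 of the 9 desmosome genes than newborn wild-type eyes, although Egr1 RNA itself was higher in them. The changes ran from 1.8 for Dsc3 to 3.82 for Dsg3 on the log2 scale. The exception was Dsc1, whose groups overlapped. In edgeR's quasi-likelihood test with Benjamini-Hochberg adjustment over all genes at a threshold of 0.05, 14.6% of 17592 genes rose and 9.38% fell. The median log2 fold change was 2.40 over the 9 members and -0.07 over all genes tested. In 8 members both labelled knockout libraries lay above both wild-type libraries, which 33.8% of all genes did too.

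The desmogleins were among the clearest. Dsg3, an adhesive cadherin of the basal layers, had levels of 1.11 and 1.13 in the wild type and 15.2 and 16.9 in the labelled knockout. Its log2 fold change was 3.82 ± 0.32 (SE, n = 2 against 2, edgeR adjusted p = 0.00233), a 14.2-fold difference. Dsg2, the desmoglein shared with simple epithelia, had levels of 1.59 and 1.74 in the wild type and 9.42 and 7.88 in the labelled knockout, a log2 fold change of 2.37 ± 0.19 (edgeR adjusted p = 0.00233). In both genes the groups were far apart relative to the spread within them, and their 95% intervals, 3.07 to 4.58 for Dsg3 and 1.91 to 2.82 for Dsg2, did not overlap.

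The desmocollins differed more from each other. Dsc2 levels were 4.59 and 5.42 in the wild type and 47.8 and 46.5 in the labelled knockout, a log2 fold change of 3.23 ± 0.33 (edgeR adjusted p = 0.00298). Dsc3, the basal-layer desmocollin, had levels of 1.59 and 2.53 against 8.72 and 5.79, a log2 fold change of 1.8 ± 0.49 (edgeR adjusted p = 0.0361). Dsc1 had 31 and 116 reads in the wild type and 428 and 39 in the labelled knockout, which is 1 high library in the second group. Its log2 fold change of 1.27 ± 0.94 did not pass (edgeR adjusted p = 0.364).

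The plaque genes rose together with the cadherins. Pkp1, a plakophilin of stratified epithelia that strengthens cadherin clustering, had levels of 7.61 and 15.1 in the wild type and 69.8 and 73.3 in the labelled knockout, a log2 fold change of 2.64 ± 0.48 (edgeR adjusted p = 0.00926). Pkp3, found in most epithelia, had levels of 7.04 and 13.6 against 57.0 and 52.5, a log2 fold change of 2.40 ± 0.42 (edgeR adjusted p = 0.00822). Wild-type replicate 2 was above replicate 1 for both plakophilins, while the labelled knockout libraries were close to each other. Dsp, the keratin anchor, had levels of 6.52 and 9.60 in the wild type and 57.5 and 53.3 in the labelled knockout, a log2 fold change of 2.77 ± 0.44 (edgeR adjusted p = 0.00615). Jup, which also serves adherens junctions, had levels of 38.3 and 65.7 against 252 and 212, a log2 fold change of 2.15 ± 0.41 (edgeR adjusted p = 0.0112).

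With 2 libraries a group these calls rest on each wild-type library. Without wild-type replicate 1 no gene of the whole table passed and the 8 members had edgeR adjusted p of 0.0517 to 0.215 with log2 fold changes of 1.54 to 3.83, and without wild-type replicate 2 Dsg2, Dsg3, Dsc2 and Pkp3 remained past the threshold, where 3.01% of genes were called higher. Without labelled knockout replicate 1, the library low in lens markers, 7 members passed (7.61% of genes were higher), Dsc3 did not (log2 fold change 1.48, edgeR adjusted p = 0.137) and Dsc1 turned to -1.12.

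**Figure D2:**
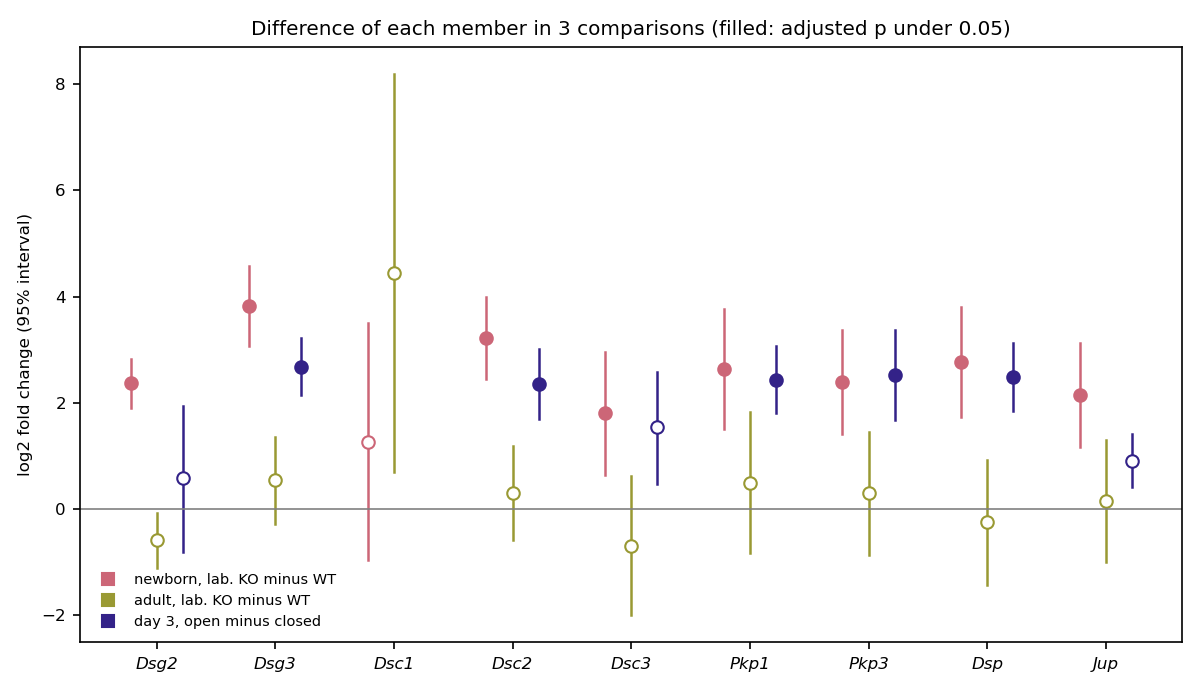
Log2 fold change of each gene in 3 comparisons, with 95% intervals from edgeR's quasi-likelihood fit. Filled points passed the adjusted p threshold of 0.05 and open points did not. In newborns 8 genes are filled, from 1.8 to 3.82, in adults none is, and at day 3 the filled points are Dsg3, Dsc2, Pkp1, Pkp3 and Dsp.

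In adult eyes no member passed the test between labelled knockout and wild type, and most values lay near 0. The wild type is 1 library, assumed to vary like the other groups. In edgeR 0 of 9 members passed, with 0.0% of all genes called higher. At an unadjusted p under 0.05, Dsc1 was higher, as were 2.32% of genes, and Dsg2 lower, while DESeq2 called 1 member, Dsc1 (adjusted p = 0.0392), and 0.63% of genes higher. The 95% intervals were wide, and for Dsg3 ran from -0.28 to 1.36 on the log2 scale.

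Dsg2 levels were 9.33 in the wild type and 5.52 and 6.65 in the labelled knockout, a log2 fold change of -0.59 ± 0.22 (edgeR unadjusted p = 0.0292, adjusted p = 1.0). Dsg3 levels were 24.4 in the wild type and 24.8 and 44.7 in the labelled knockout, with a log2 fold change of 0.54 ± 0.35. Dsc1 had 8 reads in the wild type and 161 and 191 in the labelled knockout, a log2 fold change of 4.45 ± 1.59 (edgeR unadjusted p = 0.0261, adjusted p = 1.0). Dsc1 thus had the largest fitted difference of the members in adults and the fewest reads.

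The remaining members were spread around the wild-type library. Dsc2 levels were 77.0 against 66.7 and 119, and those of Dsc3 33.5 against 11.1 and 29.6. Among plaque genes, Pkp1 levels were 85.6 against 74.2 and 163, Pkp3 levels 61.8 against 50.5 and 98.3, Dsp levels 103 against 55.0 and 115, and Jup levels 220.2 against 178 and 304. For all of these but Dsc3 the wild-type level lay between the labelled knockout libraries. Labelled knockout replicate 1, low in corneal and lens markers, was the lower of the pair for 9 of 9 members. Dsp turned from -0.25 to 0.19 on the log2 scale without it, and Dsc2, Pkp1, Pkp3 and Jup turned to between -0.28 and -0.18 without replicate 2.

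The difference between the ages was tested directly, as the adult genotype effect minus the newborn one. It passed for 3 members, all lower in adults, where 1.8% of all genes were called lower. Dsg2 differed by -2.95 ± 0.28 (edgeR adjusted p = 0.0307), Dsg3 by -3.28 ± 0.44 (edgeR adjusted p = 0.0341) and Dsc2 by -2.93 ± 0.47 (edgeR adjusted p = 0.0421) on the log2 scale. Dsp, with a difference of -3.02 ± 0.64, just missed the threshold (edgeR adjusted p = 0.0559), and Dsc3, Pkp1, Pkp3 and Jup had differences from -2.49 to -1.99 that did not pass. Dsc1 alone had a positive difference, 3.17 ± 1.79, which did not pass (edgeR adjusted p = 0.385). No member passed without newborn wild-type replicate 1 or without replicate 2, 5 passed without adult labelled knockout replicate 1 (5.76% of genes were called lower) and 8 without replicate 2 (5.34% of genes). DESeq2 called 8 members, and 7.8% of genes lower.

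A single genotype effect over both ages passed for 0 of 9 members in edgeR, with 0.0114% of genes called higher, 5 members higher at an unadjusted p under 0.05, where 12.7% of genes were, and 4 called by DESeq2, which called 6.37% of genes higher. Its log2 fold changes ran from 0.71 for Dsc3 to 2.33 for Dsg3. Leaving out the lone adult wild-type library brought the count to 8, with 15.5% of genes called higher, since only newborns then informed the contrast.

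Between newborn and adult wild-type eyes, 8 of 9 desmosome genes were higher in the adult, on a background of 18.0% of genes. This comparison shares the newborn wild-type libraries with the newborn genotype comparison, so the results of both move with the same 2 libraries. Dsg3 was higher by 4.4 ± 0.35 on the log2 scale, Dsc3 by 3.99 ± 0.57, Dsc2 by 3.91 ± 0.37 and Dsp by 3.64 ± 0.49. Pkp1 was higher by 2.88 ± 0.54, Pkp3 by 2.55 ± 0.47, Dsg2 by 2.45 ± 0.22 and Jup by 2.05 ± 0.47. Their edgeR adjusted p ran from 0.000359 to 0.0148, with 1 adult library assumed to vary like the rest. Dsc1 had a log2 difference of -3.16 ± 1.55 (edgeR adjusted p = 0.163), with 8 reads in the adult against 31 and 116. Without newborn wild-type replicate 1, Pkp1 and Jup no longer passed (edgeR adjusted p = 0.0502 and 0.0782).

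At day 3, open eyes carried more RNA of 5 desmosome genes than closed eyes of the same mice. Dsg3, Dsc2, Pkp1, Pkp3 and Dsp were each 5.11 to 6.41 times higher, Dsc3 and Jup pointed the same way without passing, and Dsg2 split between the mice. The fit used the 8 eyes with mouse as a block, so that E24 and E29, the mice with an eye of each kind, carried the contrast. In edgeR 5 of the 8 members tested passed, where 0.534% of 15159 genes were called higher and 0.0594% lower. In 7 of 8 members every open eye lay above every closed eye, which 6.22% of genes did, and the median log2 fold change was 2.40 against 0.01 over all genes.

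Dsg3 levels were 8.12 in the open and 1.53 in the closed eye of E24, and 8.13 and 1.07 in those of E29. The open eyes of E32 stood at 13.6 and 15.2, and the closed eyes of E28 at 1.35 and 1.67. The log2 fold change of Dsg3 was 2.68 ± 0.23 (edgeR adjusted p = 0.00514). No closed eye came near an open one. Dsc2 levels were 20.4 and 3.66 in E24, 17.1 and 3.75 in E29, 30.4 and 36.6 in E32 and 4.77 and 8.25 in E28, a log2 fold change of 2.35 ± 0.28 (edgeR adjusted p = 0.016). Dsc2 thus kept a gap between 8.25 and 17.1.

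The plakophilins behaved alike in these eyes. Pkp1 levels were 33.9 open and 6.94 closed in E24, 45.5 and 7.78 in E29, 119 and 78.0 in the open eyes of E32 and 11.2 and 15.9 in the closed eyes of E28, a log2 fold change of 2.44 ± 0.27 (edgeR adjusted p = 0.0134). Pkp3 levels were 39.9 and 6.21 in E24, 57.1 and 11.3 in E29, 143 and 84.0 in E32 and 10.8 and 19.6 in E28, a log2 fold change of 2.52 ± 0.36 (edgeR adjusted p = 0.0398). The right eye of E32 was the highest for both. For the keratin anchor Dsp, levels were 50.1 and 8.33 in E24, 61.3 and 12.1 in E29, 117 and 91.6 in E32 and 13.0 and 20.8 in E28. Dsp had a log2 fold change of 2.48 ± 0.27 (edgeR adjusted p = 0.0124).

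Jup, Dsc3 and Dsg2 did not pass. Jup levels were 201 and 105 in E24, 263 and 147 in E29, 497 and 344 in the open eyes of E32 and 157 and 167 in the closed eyes of E28. Every open eye was above every closed eye for Jup, but its log2 fold change of 0.91 ± 0.21 had an edgeR adjusted p of 0.202. Its 95% interval, 0.41 to 1.41, did not overlap that of Dsp, 1.85 to 3.12, although both differences come from the same libraries and were not compared by a test. Dsc3 levels were 2.38 and 0.669 in E24, 1.51 and 0.658 in E29, 8.67 and 4.96 in E32 and 0.674 and 1.43 in E28, a log2 fold change of 1.54 ± 0.45 (edgeR adjusted p = 0.386). Its lowest open eye and highest closed eye nearly met.

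Dsg2 was the member whose eyes disagreed. Its level was lower in the open than in the closed eye of E24, at 1.07 and 1.59, and higher in E29, at 6.13 and 1.99. The open eyes of E32 had Dsg2 levels of 9.80 and 8.93 and the closed eyes of E28 had 1.95 and 4.53. The log2 fold change was 0.58 ± 0.58, with a 95% interval from -0.80 to 1.95, and it turned to -0.57 without E29. Dsc1 had too few reads for the fit, with 0 and 1 reads in the open and closed eyes of E24, 4 and 0 in E29, 957 and 320 in the open eyes of E32 and 0 and 2 in E28. Of these 8 eyes, those of E32, the mouse with both eyes open, thus held nearly all Dsc1 reads.

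**Figure D3:**
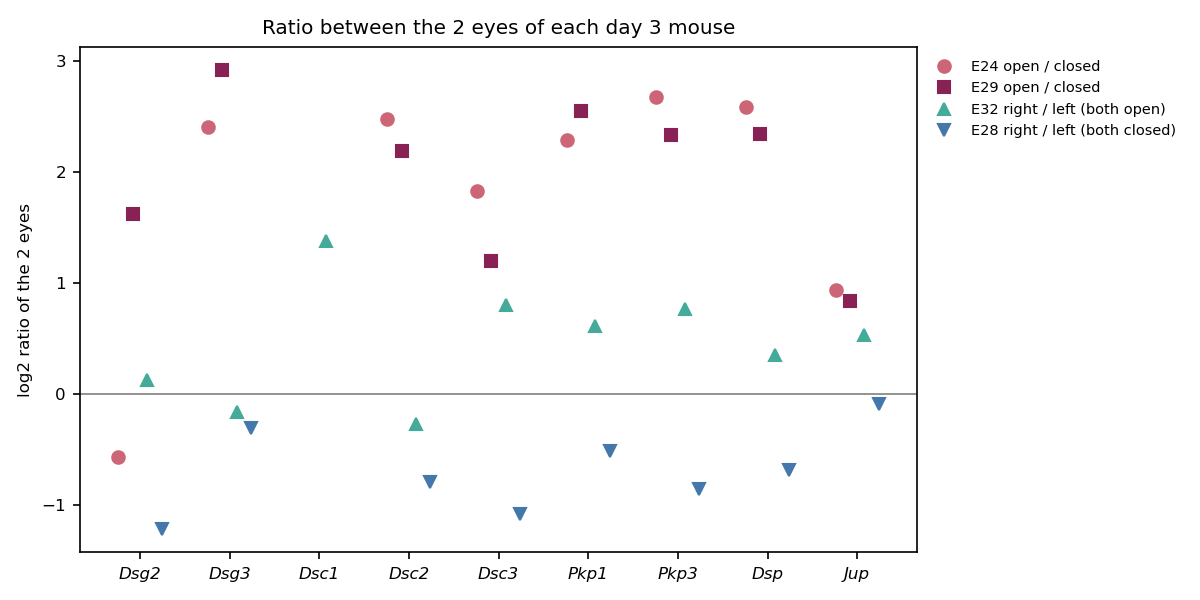
Log2 ratio of levels between the eyes of each day 3 mouse, by gene. Circles and squares give the open eye over the closed eye of E24 and E29, and triangles give the right eye over the left eye of E32 (both open) and E28 (both closed). Dsc1 is drawn for E32 alone because the other mice had too few reads. For Dsg3, Dsc2, Pkp1, Pkp3 and Dsp the E24 and E29 points lie between 2.19 and 2.92, above all points of E32 and E28.

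The 2 eyes of a mouse that looked alike give a measure of how far eyes of the same state can differ. The open eye exceeded the closed one in 7 of 8 members in E24, with a median log2 ratio of 2.35, and in 8 of 8 in E29, with a median of 2.26. Between the open eyes of E32, 7 of 9 members were higher on the right, with a median log2 ratio of 0.53 and a range from -0.27 to 1.38. Between the closed eyes of E28 all 8 members with enough reads were lower on the right, with a median of -0.74 and a range from -1.22 to -0.09. Eyes of the same state thus differed in a common direction over most members, by less than the open and closed eyes of E24 and E29 differed in Dsg3, Dsc2, Pkp1, Pkp3 and Dsp.

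These 5 calls rest on both informative mice. Leaving out E24 or E29 left 0 members past the threshold, with log2 fold changes of 2.21 to 2.94 and unadjusted p from 0.000138 to 0.00535 in edgeR, 0 genes in all without E24 and 1 without E29. The right eye of E32 had the highest sum of hair follicle markers. Without it 6 members passed, Jup included (edgeR adjusted p = 0.0332), where 0.964% of genes were called higher. With the authors' library totals Pkp3 no longer passed (edgeR adjusted p = 0.0549).

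Summed over both eyes of each mouse, the 3 mice labelled Egr1-/- did not differ detectably from the 1 Egr1+/- mouse in any member. In edgeR 0 of 9 members passed, with 0.0% of 16453 genes called higher. Dsg3 was higher at an unadjusted p of 0.0425, where 1.17% of genes were under 0.05, and DESeq2 called 0 members and 0.553% of genes higher. The log2 fold changes of the 8 members with enough heterozygous reads were all above 0, from 0.74 for Dsg2 to 2.48 for Dsg3, and Dsc1 had 2 reads in the Egr1+/- mouse. The eyes labelled Egr1-/- in these sums include 4 open eyes, and the Egr1+/- mouse has none, so genotype and eye state cannot be told apart here.

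When the closed eyes alone were compared, E24 and E29 against E28, the direction of all 8 members tested turned over. The log2 difference was -0.82 for Pkp1, -0.76 for Dsg2, -0.74 for Dsc2, -0.71 for Pkp3, -0.65 for Dsp, -0.57 for Dsc3, -0.32 for Jup and -0.17 for Dsg3. None passed in edgeR, and since E28 is 1 mouse the differences are given by size only. For Dsc2, Dsc3, Pkp1, Dsp and Jup both closed eyes labelled Egr1-/- lay below both eyes of E28, and for Dsg2, Dsg3 and Pkp3 the groups overlapped. The share of all genes with such a gap is not given here. The eyes of E28 themselves differed over these 8 members, with a median log2 ratio of right over left of -0.74.

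The mixture of cadherins shifted along with their total. Levels per kilobase allow shares to be formed, which are described without a test since they use the same reads as the tests above. Dsg3 made up 39.5 to 41.1% of the summed level of Dsg2 and Dsg3 in newborn wild-type eyes and 61.7 to 68.2% in the labelled knockout. At day 3 it made up 27.0 to 49.1% in the closed eyes and 57.0 to 88.4% in the open eyes, and in adults 72.3% in the wild type and 81.8 to 87.1% in the labelled knockout. Of these 2 genes Dsg2, the desmoglein of simple epithelia, was thus the larger part in newborn wild-type and closed day 3 eyes, and Dsg3 in all the others. The sum leaves out Dsg1a, Dsg1b and Dsg1c. Dsg1a alone had levels of 1.19 to 2.26 in newborn wild-type eyes and 10.1 in the adult wild type.

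**Figure D4:**
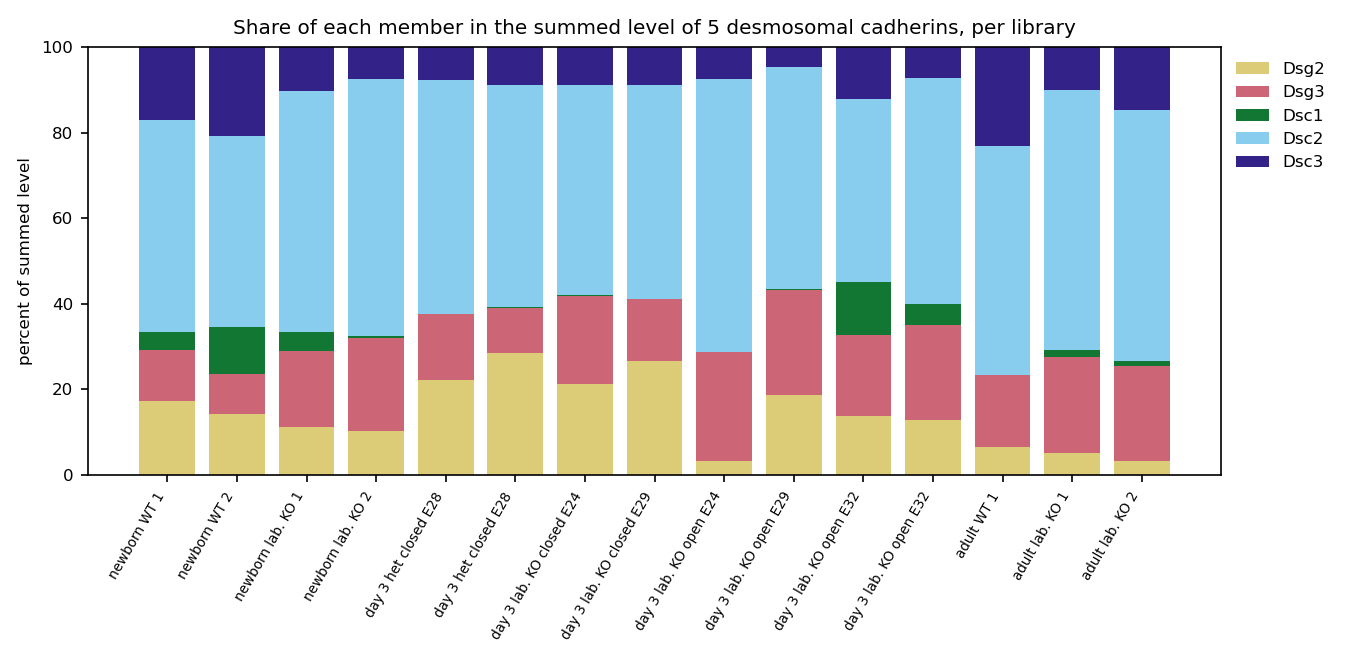
Share of each cadherin in the summed level of Dsg2, Dsg3, Dsc1, Dsc2 and Dsc3, in percent, with 1 bar per library. Dsc2 is the largest part in every library, from 42.7 to 63.8%, and Dsc1 is visible in both newborn wild-type libraries, in 1 newborn labelled knockout, in both eyes of E32 and in the adult labelled knockout.

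Dsc2 was the leading desmocollin in every library. It took 58.5 to 69.9% of the summed desmocollin level in newborn wild-type eyes and 79.3 to 88.3% in the labelled knockout, 84.3 to 87.6% in closed and 63.5 to 91.7% in open day 3 eyes, and 69.6% in the adult wild type against 78.8 to 83.7% in the adult labelled knockout. Dsc3 held 24.2 to 27.3% in newborn and 30.3% in adult wild-type eyes, and 10.99 to 14.4% and 14.0 to 19.6% in the labelled knockout of those ages. At both ages the Dsc3 share of the labelled knockout was below that of the wild type, without overlap. The plakophilins kept a more even balance, with Pkp1 making up 40.7 to 62.4% of their summed level over all libraries.

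Plakoglobin and desmoplakin, the partners in the plaque, did not move in proportion. Jup made up 85.4 to 87.3% of the summed level of Jup and Dsp in newborn wild-type eyes and 79.9 to 81.4% in the labelled knockout. At day 3 the share of Jup was 88.9 to 92.6% in the closed and 79.0 to 81.1% in the open eyes, and in adults it was 68.1% in the wild type and 72.5 to 76.4% in the labelled knockout. The share of Jup was highest in the closed day 3 eyes, above every other library.

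Dsc1 followed another pattern from the rest. Its level was 8.84 and 3.39 in the right and left eyes of E32 and at most 0.0401 in the other 6 day 3 eyes. Among all 16162 genes compared, Krt10, a keratin of differentiating epidermis, had the pattern most like that of Dsc1 (Pearson r = 0.981 over 15 libraries, log2 CPM). Krt10 levels were 945 and 318 in the eyes of E32 and 1.79 to 6.92 in the other day 3 eyes, 17.2 and 98.3 in newborn wild type, 434 and 44.5 in newborn labelled knockout, 9.80 in the adult wild type and 158 and 239 in the adult labelled knockout. Within newborn wild type, newborn labelled knockout, adult labelled knockout and E32, the library higher in Krt10 was also the one higher in Dsc1. Krt10 was picked for its likeness over these same libraries, so this match is not separate evidence. The gene next most alike was Lce1h, a cornified envelope gene, with r = 0.972 on at most 50.0 reads per library.

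Of the 16 genes nearest in pattern to the other 8 members, 2 for each, 3 were members themselves. The correlations below are Pearson r of log2 CPM over the 15 libraries, which share groups and depth, and are descriptions. Dsg3 was closest to Aqp3, a water and glycerol channel of the epidermis (r = 0.988), and to Dsc2 (r = 0.985), and Dsc2 was closest to Mall (r = 0.99). Pkp1 was closest to Perp, a membrane protein that desmosomes need in stratified epithelia (r = 0.989), and Dsp to the basal keratin Krt5 (r = 0.984). Pkp3 was closest to Dsp (r = 0.981), and Pkp1 and Pkp3 shared Fam83g as the next gene (r = 0.979 and 0.98). Dsc3 was closest to Tmprss11a (r = 0.983) and Calml3 (r = 0.981), Dsg2 to Lrrc26 (r = 0.974) and Fermt1 (r = 0.967), and Jup to Ppp1r13l (r = 0.975) and Fam129b (r = 0.973). Lypd3 followed Krt5 for Dsp (r = 0.981). Between members, r was 0.96 to 0.99 among Dsg3, Dsc2 and Pkp1 and was lowest for Dsc1 with Jup at 0.31.

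The other junction genes rose less often than the members in the day 3 eyes by count, with no test of that difference. Of 9 other desmosome genes tested, 4 rose in newborn labelled knockout eyes, with a median log2 fold change of 1.63, and 0 of 8 passed at day 3, with a median of 1.04. The newborn 4 were the plakin-family linkers Evpl (3.33 ± 0.49) and Ppl (2.43 ± 0.36), Perp (2.48 ± 0.44) and Dsg1b (1.68 ± 0.37), on the log2 scale with edgeR adjusted p from 0.00521 to 0.0178. At day 3 Dsg1b (2.39 ± 0.38, edgeR adjusted p = 0.056) and Perp (2.04 ± 0.33, edgeR adjusted p = 0.0637) came closest. Dsg1a, Dsg1b and Dsg1c are near-identical copies whose reads may be split, so the Dsg1b values are uncertain.

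Genes of adherens and tight junctions also rose in newborns. Of 10 adherens junction genes 7 rose in newborns, with a median log2 fold change of 1.06, and 0 at day 3, with a median of 0.14. They included E-cadherin Cdh1 (2.80 ± 0.25), the nectin Pvrl4 (2.69 ± 0.36), Vcl (2.03 ± 0.19), which links junctions to actin, and P-cadherin Cdh3 (1.39 ± 0.20), on the log2 scale. At day 3 Pvrl4 (1.56 ± 0.30, edgeR adjusted p = 0.112) and Cdh1 (1.09 ± 0.32, edgeR adjusted p = 0.4) did not pass. Of 12 tight junction genes 9 rose in newborns, with a median of 2.08, among them the claudins Cldn4 (3.35 ± 0.32), Cldn7 (3.26 ± 0.32) and Cldn3 (2.95 ± 0.25) and the tricellular junction gene Marveld2 (2.08 ± 0.23). At day 3 the median was 0.59 and 1 passed, Cldn4 at 2.62 ± 0.31 (edgeR adjusted p = 0.0157), with Cldn7 next at 1.64 ± 0.28 (edgeR adjusted p = 0.0786).

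Keratins, the filaments that desmoplakin anchors, rose in both comparisons. Of 17 keratins 13 rose in newborns, with a median log2 fold change of 3.04, among them Krt13 (5.48 ± 0.60), Krt6b (4.62 ± 0.39), Krt6a (4.25 ± 0.45) and Krt8 (2.33 ± 0.19). Krt6a and Krt6b are known from wounded and activated epithelium, Krt13 from mucosal epithelium and Krt8 from simple epithelium. Krt6a and Krt6b are near-identical and may share reads. At day 3 the counts were 10 higher and 1 lower of 16, with a median of 2.37, Krt6b at 4.16 ± 0.17 and Krt6a at 3.66 ± 0.22, and the one lower was the corneal keratin Krt12 at -1.41 ± 0.21. Of 11 epithelial transcription factors measured 11 rose in newborns, with a median of 2.45, including Ehf (3.15 ± 0.33), Zfp750 (3.04 ± 0.24), Klf5 (2.90 ± 0.35) and Grhl2 (2.45 ± 0.25). None of these factors passed in edgeR at day 3, where the median was 1.5 and Elf3 came closest (2.17 ± 0.34, edgeR adjusted p = 0.0553).

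**Figure D5:**
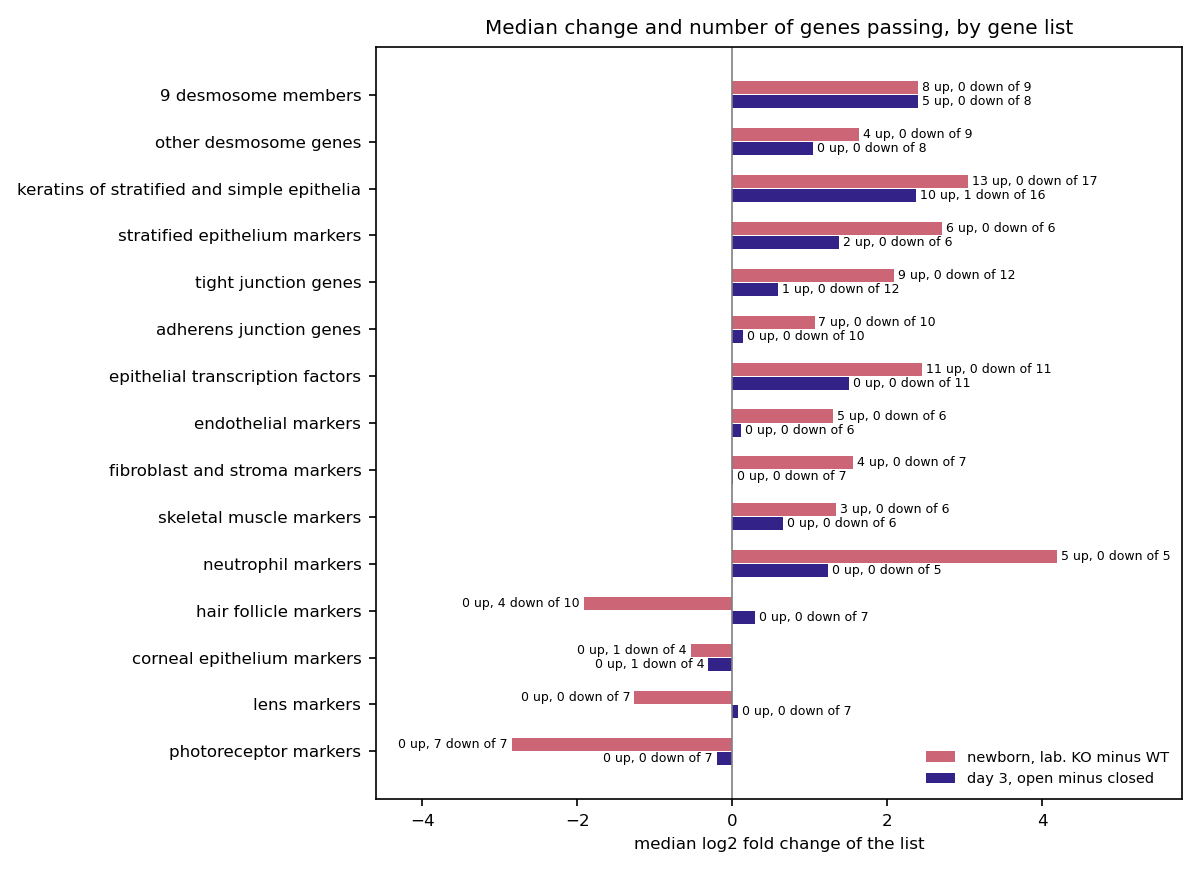
Median log2 fold change of each gene list in the newborn and the day 3 comparison, with the number of genes that passed edgeR's adjusted p threshold in each direction. The 9 desmosome genes have a median of 2.40 in both, the lists from other desmosome genes to neutrophil markers are above 0 in both, and hair follicle, corneal, lens and photoreceptor markers are below 0 in newborns.

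Markers of stratified epithelium were also higher in newborn labelled knockout and in open day 3 eyes. Their median log2 fold changes were 2.71 and 1.37, against 2.40 for the members in both. The summed level of Krt5, Krt14, Trp63, Itgb4, Itga6 and Col17a1 was 231 to 423 in newborn wild-type eyes and 2790.4 to 3332 in the labelled knockout, and 6 of 6 rose, Itgb4 by 3.45 ± 0.30, Krt14 by 3.62 ± 0.54, Krt5 by 3.04 ± 0.59 and Trp63 by 2.24 ± 0.33 on the log2 scale. At day 3 the sum was 299 to 605 in the closed and 1665 to 4503 in the open eyes, and 2 of 6 passed, Krt14 at 3.92 ± 0.28 and Krt5 at 2.06 ± 0.22. In adults it was 3469 in the wild type and 1964 and 3449 in the labelled knockout. How far the amount of epithelium in a sample accounts for the members was not tested.

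Set against that marker sum, 1 member, Dsg3, stayed higher in every newborn labelled knockout library. Dsg3 was 0.268 to 0.481% of the marker level in newborn wild-type eyes and 0.506 to 0.544% in the labelled knockout. Dsc2 was 1.28 to 1.99% and 1.40 to 1.71%, which overlap. Dsp at 2.27 to 2.82% and 1.60 to 2.06%, Pkp1 at 3.29 to 3.57% and 2.20 to 2.50%, Pkp3 at 3.05 to 3.21% and 1.58 to 2.04% and Jup at 15.5 to 16.6% and 6.38 to 9.01% were lower per marker level in the labelled knockout. Dsg2 at 0.411 to 0.690% and 0.236 to 0.338% and Dsc3 at 0.598 to 0.687% and 0.174 to 0.312% were lower as well. These ratios depend on Krt5 and Krt14, which carry most of the sum. The sum was 231 to 423 in the newborn wild type and 2790 to 3332 in the labelled knockout. Any gene that rose less than this sum is therefore lower on this scale. The share of all genes that were lower or higher in this way is not given here.

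At day 3 the same ratios overlapped between open and closed eyes for Dsg3, Dsc2, Pkp1, Pkp3 and Dsp. Dsg3 was 0.271 to 0.488% of the marker level in open eyes and 0.246 to 0.512% in closed eyes, and Dsp 2.05 to 3.01% and 2.78 to 3.45%. Jup was 8.78 to 12.1% in open and 27.5 to 35.1% in closed eyes, far apart. Dsg2 was 0.0642 to 0.251% in open and 0.425 to 0.750% in closed eyes. Per marker level, Jup and Dsg2 were thus lower in every open eye than in any closed eye. The marker sum itself was 299 to 605 in closed and 1665 to 4503 in open eyes. Any gene that rose less than this sum is therefore lower on this scale. The share of all genes that were lower in this way is not given here.

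Markers of other cells moved in newborns too, and their part in the members' differences was not tested. The neutrophil markers rose in 5 of 5 genes measured, with summed levels of 3.89 to 4.88 in the wild type and 62.8 to 89.9 in the labelled knockout, led by S100a9 (4.64 ± 0.37 on the log2 scale), Mmp9 (4.28 ± 0.52), S100a8 (4.19 ± 0.52) and Csf3r (2.85 ± 0.33). Of 7 stroma markers 4 rose, with sums of 995 to 1506 and 3011 to 4833, of 6 endothelial markers 5 rose, with sums of 87.2 to 102 and 155 to 175, and of 6 skeletal muscle markers 3 rose, with sums of 1073 to 1519 and 2778 to 3404. Photoreceptor markers fell in 7 of 7 genes, with sums of 308 to 359 and 23.0 to 77.2. Of 10 hair follicle markers 4 fell, with sums of 156 to 357 and 79.2 to 83.2. Lhx2 alone stood at 93.1 to 115.6 in the wild type and 22.7 to 34.2 in the labelled knockout. The gap between these sums thus rests in large part on Lhx2. Of 4 corneal epithelium markers Pax6 fell by 0.74 on the log2 scale, with sums of 229 to 287 and 199.5 to 208. Aldh3a1 pointed the other way without passing (2.18 ± 0.75, edgeR adjusted p = 0.0771), and Tkt (-0.34) and Krt12 (-0.80) did not pass. The wild-type newborn eyes were thus richer in photoreceptor marker RNA and the labelled knockout eyes in epithelial, stromal, endothelial and neutrophil marker RNA.

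At day 3 none of the neutrophil, stroma, endothelial, muscle, lens, photoreceptor and hair follicle markers passed in edgeR. That contrast was carried by E24 and E29 and does not show how E32 differed. The photoreceptor sum was 92.4 and 14.8 in the right and left eyes of E32, and 155 to 344 in the other day 3 eyes. In the same 2 eyes of E32 the neutrophil sum was 37.3 and 135. The neutrophil sum was 12.9 in the open and 6.40 in the closed eye of E24 and 51.2 and 29.9 in those of E29, and the endothelial sum was 136 to 177 over all 8 eyes. The skeletal muscle sum was 2426 in the open and 1511 in the closed eye of E24 and 4086 and 2669 in those of E29. The median log2 fold changes were 1.23 for the neutrophil, 0.65 for the muscle, 0.29 for the hair follicle, 0.11 for the endothelial, 0.07 for the lens, 0.01 for the stroma, -0.2 for the photoreceptor and -0.31 for the corneal list. Their part in the day 3 differences of the members was not tested.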

How the data were processed

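Per the submitters' processing notes, CASAVA 1.8, Bowtie 0.12.9, TopHat2 2.0.11 and SAMtools were used with the mouse build mm8. The counting tool and annotation are not given in the sources used here. Poly(A)+ RNA was made into cDNA without a strand mark and amplified for 18 PCR cycles, per the labels, so overlapping antisense genes cannot be separated. Each deposited table gave a whole-number read count and an RPKM value for 24373 transcripts, both made by the authors. Of 20418 symbols 2673 had several transcripts, and the one with the highest mean count was used.

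The counts were fitted with edgeR 4.0.16 in R 4.3.3 (TMM, filterByExpr, quasi-likelihood test, Benjamini-Hochberg over all genes tested, threshold 0.05). The SE is the log2 fold change divided by the root of F, and n is 2 against 2 in newborns, 2 against 1 in adults and 4 mice at day 3. One fit over the 7 newborn and adult libraries gave the genotype effects, and the day 3 fit had mouse as a block. DESeq2 1.42.0 was an alternative, and the fits were tested on simulated data. Depth was 20334849 to 43907093 reads in transcripts, and reads carry no molecular identifiers.

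All 9 members are named. From each of 14 gene lists a rule took up to 4 genes with the smallest newborn p, and up to 2 at day 3. These are named for the junction, keratin, transcription factor and stratified epithelium lists, and in newborns for neutrophils, except 1 gene that is not reported here. The other marker lists are given by counts and sums, with Lhx2 and, in newborns, the corneal markers named as well. The 2 genes most alike to each member are named by Pearson r. Members and lists were chosen with earlier results of these data known.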

Additional observations from a re-analysis of the deposited data

Results flagged for a closer look

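The genotype effect of 3 members differed between the ages in a test of the difference itself (edgeR's quasi-likelihood test, adult labelled knockout minus wild type, less the same contrast in newborns). The difference was -2.95 for Dsg2 (adjusted p = 0.0307), -3.28 for Dsg3 (adjusted p = 0.0341) and -2.93 for Dsc2 (adjusted p = 0.0421) on the log2 scale. In newborns both labelled knockout libraries were above both wild-type libraries for all 3 genes, while the adult contrast has 1 wild-type library. No library among the 4 open day 3 eyes stood out from the others in a member by Dixon's test. That test looks for 1 eye apart from the rest, so it does not show that these eyes were alike. Dsc1 had 957 and 320 reads in the eyes of E32, against 0 in the open eye of E24 and 4 in that of E29.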

How the results depend on the processing

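Directions and calls were recomputed under other scalings (DESeq2 size factors, the authors' library totals, lens genes left out), other filters, summed transcripts, DESeq2 and left-out libraries or mice. Of 143 newborn member values, 128 kept their direction and side of the threshold, 13 fell below it, 1 rose past it and 1 turned. For day 3 open against closed these were 94, 11, 4 and 1 of 110. The newborn count of members called ranged from 0 to 9 over left-out replicates, and the day 3 count from 0 to 6. The newborn genes called in all were 4226, and 728 without wild-type replicate 2. The adult count was 1 by DESeq2. Over both ages it was 4 by DESeq2 and 0 to 8 over left-out libraries. For the difference between ages it was 8 by DESeq2 and 0 to 8 over left-out libraries. Shares of all genes are given above for some of these counts only. Over left-out libraries Dsc1 in newborns ranged from -1.12 to 2.43, turning without labelled knockout replicate 1. In adults Dsc2 ranged from -0.19 to 0.66, Pkp1 from -0.18 to 0.97, Pkp3 from -0.27 to 0.7, Jup from -0.28 to 0.5 and Dsp from -0.89 to 0.19. Dsg2 at day 3 ranged from -0.57 to 1.64 over left-out mice, and from -0.16 to 1.19 for mice labelled Egr1-/- against Egr1+/-. With closed eyes only, that comparison gave -0.76 for Dsg2, -0.17 for Dsg3, -0.74 for Dsc2, -0.57 for Dsc3, -0.82 for Pkp1, -0.71 for Pkp3, -0.65 for Dsp and -0.32 for Jup. The cause of these changes was not tested, beyond the smaller number of libraries. Leaving out E28 gave no value for the last comparison, since no Egr1+/- mouse remained.

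The newborn replicate numbers are not known to pair the libraries (r = 0.167 over 16126 genes between the deviations of the groups). With a replicate block, 8 members passed in newborns and 0 over both ages, and without the mouse term at day 3, 5 passed. The shares of all genes called higher in these fits are not given here. At day 3 the whole-table count in both directions together was 90 of 15159 genes, 407 without the mouse term and 352 by DESeq2. With the authors' RPKM, levels differed from the scaled ones by -0.45 to 0.01 on the log2 scale. Intervals cover counting and library spread only.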
